A study of Macaca mulatta with 45 samples.

Results

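The antioxidant and glutathione genes were taken from the deposited count table by symbol. The rule kept rows named for a glutathione peroxidase, peroxiredoxin, superoxide dismutase, thioredoxin or thioredoxin reductase, glutathione transferase, quinone reductase, heme oxygenase, glutaredoxin or methionine sulfoxide reductase, for TXNIP, CAT, SRXN1 and the enzymes of glutathione synthesis and reduction, and for the regulators NFE2L1, NFE2L2 and KEAP1 and the gene OXR1. Of 57 rhesus symbols that matched, 46 had a row among the 30246 gene IDs of the table, of which 15769 had a symbol. The other 11 (GSR, GPX3, GPX7, GPX8, SRXN1, SOD2, TXN, GSTT1, GSTO2, GLRX5 and MGST1) were not analysed here. The rule uses symbols and no measured value.

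Total RNA depleted of ribosomal RNA was sequenced from 3 brain regions of 15 rhesus macaques, with 1 library per animal and region. The regions were the dorsolateral prefrontal cortex (Brodmann area 46), the hippocampus and the centrum semiovale, which is deep white matter. Control animals (n = 5) had been irradiated at the thorax only, with 10 Gy, and carry a labelled brain dose of 0.1 Gy, given in the design text as an upper estimate; they are therefore not unirradiated animals. Animals of the fWBI group (n = 5) had fractionated whole-brain irradiation of 40 Gy, as 8 fractions of 5 Gy, 12 months before necropsy. Animals of the TBI group (n = 5) had a single total body dose, labelled 6.75 Gy in 2 animals, 7.2 Gy in 2 and 8.05 Gy in 1, 6 to 9 years before necropsy. All were perfused with saline before the brain was removed. The sources used here give no ages or sexes and no time since the thorax irradiation. The dose, its schedule, the volume irradiated and the time since exposure differ together between fWBI and TBI and cannot be told apart. The fWBI and TBI animals of a region are compared with the same 5 Control libraries, so those comparisons are not independent of each other.

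The members form the enzymatic defence against reactive oxygen. Superoxide dismutases turn superoxide into hydrogen peroxide, and catalase, glutathione peroxidases and peroxiredoxins remove the peroxide. The peroxidases draw on glutathione and thioredoxin, which are kept reduced with NADPH, while glutathione transferases join glutathione to reactive lipids and foreign compounds. KEAP1 holds the transcription factor NFE2L2 (NRF2) at a low level, and oxidants or electrophiles release it to activate genes such as NQO1, HMOX1 and GCLM. In the brain much of the glutathione supply is held by glia, and heme oxygenase 1 is a known product of stimulated microglia and macrophages.

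Libraries held 6625435 to 12541507 counts. Values per library are counts normalised to library size (CPM), with sizes scaled by the trimmed mean of M-values (TMM). Fold changes are log2 values ± their standard error (SE). Unless another tool is named, the quasi-likelihood test of edgeR gave the p-values, which were adjusted by Benjamini and Hochberg's method over every gene tested, and a gene was called at an adjusted p under 0.05. Counts at an unadjusted p under 0.05 are given without the share of all genes at that threshold, so they cannot be set against a background. The regions carried the markers of their labels: in Control animals all 7 oligodendrocyte and myelin markers with a row exceeded their prefrontal cortex level in white matter (median log2 difference 4.72), and all 13 pan-neuronal markers were lower. Control white matter libraries 1 and 3 stood apart, with a mean log2 CPM of pan-neuronal markers of 8.13 and 7.14 against 4.59 to 4.91 in the other 3 Control, 4.19 to 5.21 in the fWBI and 4.40 to 5.18 in the TBI white matter libraries. For members called in white matter, values without this pair are given where the call depended on it, and for some where only the size did. Fold changes of marker genes and of genes outside the members are not given without it.

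Of the 46 members, 43 had at least 1 count in some library. PRDX5, TXNRD1 and GSTK1 were listed at 0 in all 45 libraries, which says nothing about their expression, since the way their reads were assigned is not known. GPX2, GPX5, GPX6, GSTM5 and TXN2 had 197, 10, 81, 26 and 10 counts over all libraries and did not pass the filter on low counts. GSTA2 passed in hippocampus and in the fits over all regions. This left 37 members tested in white matter and in prefrontal cortex and 38 in hippocampus.

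GPX1 (ENSMMUG00000012963), the cytosolic glutathione peroxidase that reduces hydrogen peroxide, was the member whose level showed the largest called change after irradiation. In white matter it was at 15.6, 23.4, 14.8, 17.7 and 17.6 CPM in Control animals 1 to 5. The fWBI animals had 125, 245, 165, 226 and 109 CPM, and the TBI animals 37.1, 38.5, 51.4, 60.2 and 48.2 CPM. The 3 groups did not overlap, and TBI lay between the other two in all 5 animals. In hippocampus GPX1 was at 23.4, 41.3, 19.5, 18.2 and 17.9 CPM in Control, 31.6, 45.4, 36.1, 44.3 and 58.8 CPM in fWBI and 23.3, 26.6, 18.9, 39.6 and 41.7 CPM in TBI animals. Control animal 2 stood above its group and the 3 groups overlapped. In prefrontal cortex the values were 18.2, 23.6, 17.5, 28.8 and 28.9 CPM in Control, 33.8, 44.1, 39.2, 50.2 and 39.4 CPM in fWBI and 26.1, 25.6, 22.2, 43.3 and 35.3 CPM in TBI animals. All fWBI libraries there lay above all Control libraries, and TBI overlapped both. Ordered by mean, the 9 groups ran from Control white matter (17.8 ± 3.38 CPM, SD, n = 5) through Control prefrontal cortex, Control hippocampus, TBI hippocampus, TBI prefrontal cortex, fWBI prefrontal cortex, fWBI hippocampus and TBI white matter (47.1 ± 9.54) to fWBI white matter (174 ± 60.2). Each group overlapped its neighbor in this order except the last, which lay apart.

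**Figure D1:**
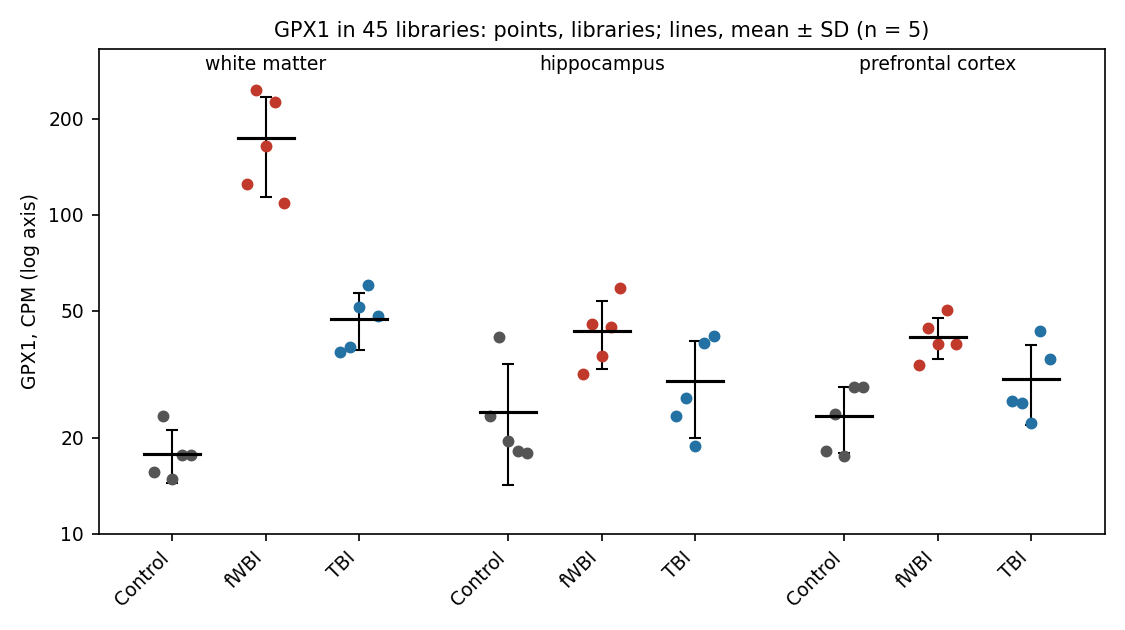
GPX1 in each of the 45 libraries, in CPM on a log axis, by treatment group and region; points are libraries and lines the mean ± SD of 5 animals. The 5 fWBI white matter libraries (109 to 245 CPM) lie above all others, and the 5 TBI white matter libraries (37.1 to 60.2 CPM) lie above the 5 Control ones (14.8 to 23.4 CPM).

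Against Control in white matter, GPX1 rose 9.78-fold after fWBI (log2 3.29 ± 0.24, adjusted p = 3.87e-07, higher in 5 of 5 animals), and it ranked 12 among 15235 tested genes by p. With GPX1, 8 members were called, which made up 21.6% of the 37 tested, against 16.8% of all genes, a share near the background. Of the 8, 6 were higher (16.2% of members, against 8.82% of all genes) and 2 lower (5.41%, against 8.03%). The median over the tested members was -0.02, against -0.03 over all genes, so the members did not move one way as a group. Without Control libraries 1 and 3 the count was 4 of 37, and leaving out Control library 3 alone gave 5. The shares of all genes called in these fits are not given here, so these counts cannot be set against a background.

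HMOX1 codes for the inducible heme oxygenase, which breaks down heme to biliverdin, iron and carbon monoxide. Its white matter values were 3.61, 6.44, 4.97, 3.56 and 11.3 CPM in Control and 14.2, 24.7, 15.4, 15.3 and 19.4 CPM in fWBI animals. The groups did not overlap; Control animal 5 came nearest to the fWBI animals. HMOX1 rose 2.98-fold (1.58 ± 0.30, adjusted p = 0.00171), and without Control libraries 1 and 3 the change was 1.34 (adjusted p = 0.0162). HMOX2, the constitutive isoform, was at -0.09 ± 0.09 (adjusted p = 0.524). The quinone reductase NQO1, a classical NRF2 target, was at 0.57 ± 0.32 (adjusted p = 0.255) and did not pass the test, with 4 of 5 fWBI animals above the Control mean.

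Among the cytosolic glutathione transferases, 3 of 5 tested members were called, and not in 1 direction. GSTP1, the pi-class transferase, was at 87.8, 106, 76.4, 122 and 121 CPM in Control and 136, 188, 138, 175 and 132 CPM in fWBI white matter. The groups did not overlap, and GSTP1 rose 1.5-fold (0.59 ± 0.14, adjusted p = 0.00879; without Control libraries 1 and 3, 0.42, adjusted p = 0.0499). GSTM3, a mu-class transferase, was at 49.8, 38.0, 47.2, 53.2 and 74.7 CPM in Control and 37.8, 16.2, 19.7, 31.4 and 26.2 CPM in fWBI animals. It fell to 50.1% of Control (-1.0 ± 0.22, adjusted p = 0.00532), and the highest fWBI library lay just under the lowest Control library. GSTZ1, which also acts in tyrosine breakdown as maleylacetoacetate isomerase, was at 25.3, 30.3, 23.1, 24.3 and 24.6 CPM in Control and 29.9, 32.5, 29.6, 38.5 and 29.1 CPM in fWBI animals. The groups overlapped at Control animal 2, and the rise of 0.33 ± 0.11 (adjusted p = 0.0462) lost its call in 14 of 19 alternative analyses. GSTA4, which conjugates the lipid peroxidation product hydroxynonenal, was at -0.46 ± 0.23 (adjusted p = 0.187), and GSTO1 at -0.21 ± 0.12 (adjusted p = 0.277).

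GCLM, the modifier subunit of the enzyme that limits glutathione synthesis, was at 25.8, 28.9, 22.7, 31.6 and 34.6 CPM in Control and 49.2, 40.0, 31.7, 37.8 and 48.0 CPM in fWBI white matter. Only fWBI animal 3 fell within the Control range, and GCLM rose 1.44-fold (0.53 ± 0.14, adjusted p = 0.0155). Its catalytic partner GCLC was at 0.22 ± 0.20 (adjusted p = 0.529). Of the 6 tested members of glutathione synthesis and the glutaredoxins, GCLM alone was called, and its call ended without Control libraries 1 and 3 (0.40, adjusted p = 0.0932).

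The 5 tested peroxiredoxins gave 1 rise and 1 fall. PRDX6, which reduces oxidized phospholipids with glutathione, rose 1.41-fold (0.49 ± 0.13, adjusted p = 0.0194), from 165 ± 24.3 to 232 ± 43.3 CPM (SD, n = 5). PRDX2, a cytosolic peroxiredoxin abundant in neurons and red cells, was at 138, 64.8, 84.5, 61.8 and 60.5 CPM in Control and 44.0, 48.4, 50.5, 50.1 and 60.7 CPM in fWBI animals. Its highest Control values were those of libraries 1 and 3, the pair with high pan-neuronal markers. PRDX2 was called lower (-0.69 ± 0.20, adjusted p = 0.0271), and without that pair the difference was -0.28 (adjusted p = 0.142). PRDX6 was at 0.40 (adjusted p = 0.114) and GSTZ1 at 0.29 (adjusted p = 0.152) without it. PRDX1, PRDX3 and PRDX4 lay between -0.14 and 0.44 and were not called.

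**Figure D2:**
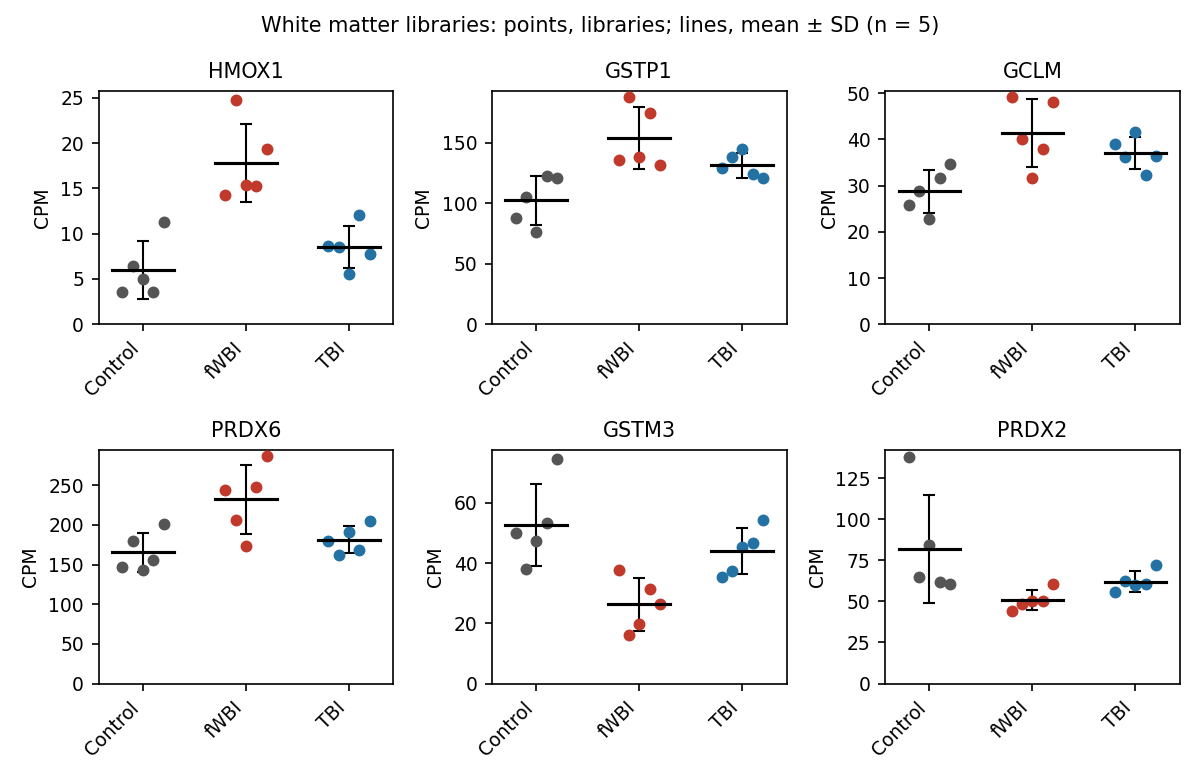
HMOX1, GSTP1, GCLM, PRDX6, GSTM3 and PRDX2 in the 15 white matter libraries, in CPM; points are libraries and lines the mean ± SD of 5 animals. The fWBI libraries lie apart from the Control libraries for HMOX1, GSTP1 and GSTM3 and overlap them for GCLM, PRDX6 and PRDX2, and 2 Control libraries are high for PRDX2.

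The other roles gave no call in fWBI white matter. The superoxide dismutases and catalase (0 of 3) ranged from -0.05 for SOD1 to 0.87 ± 0.33 for the extracellular SOD3 (adjusted p = 0.0856). The thioredoxin system (0 of 3) ranged from -0.41 ± 0.15 for the mitochondrial reductase TXNRD2 (adjusted p = 0.0664) to 0.58 ± 0.24 for TXNIP, the thioredoxin inhibitor (adjusted p = 0.119). The microsomal transferases (0 of 2) and methionine sulfoxide reductases (0 of 3) lay between -0.15 and 0.23. Of the regulators and OXR1 (0 of 4), NFE2L2 was at 0.20 ± 0.15 (adjusted p = 0.428), KEAP1 at -0.11 ± 0.09 (adjusted p = 0.505) and NFE2L1 at 0.23 ± 0.15 (adjusted p = 0.328). OXR1 was at -0.76 ± 0.32 (adjusted p = 0.121), with 650 and 395 CPM in Control libraries 1 and 3 and 159 to 185 CPM in the other 3. In all, 6 members lay wholly above (GPX1, HMOX1, GSTP1 and TXNIP) or wholly below (GSTM3 and TXNRD2) the Control range, 16.2% of those tested against 10.3% of all genes.

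**Figure D3:**
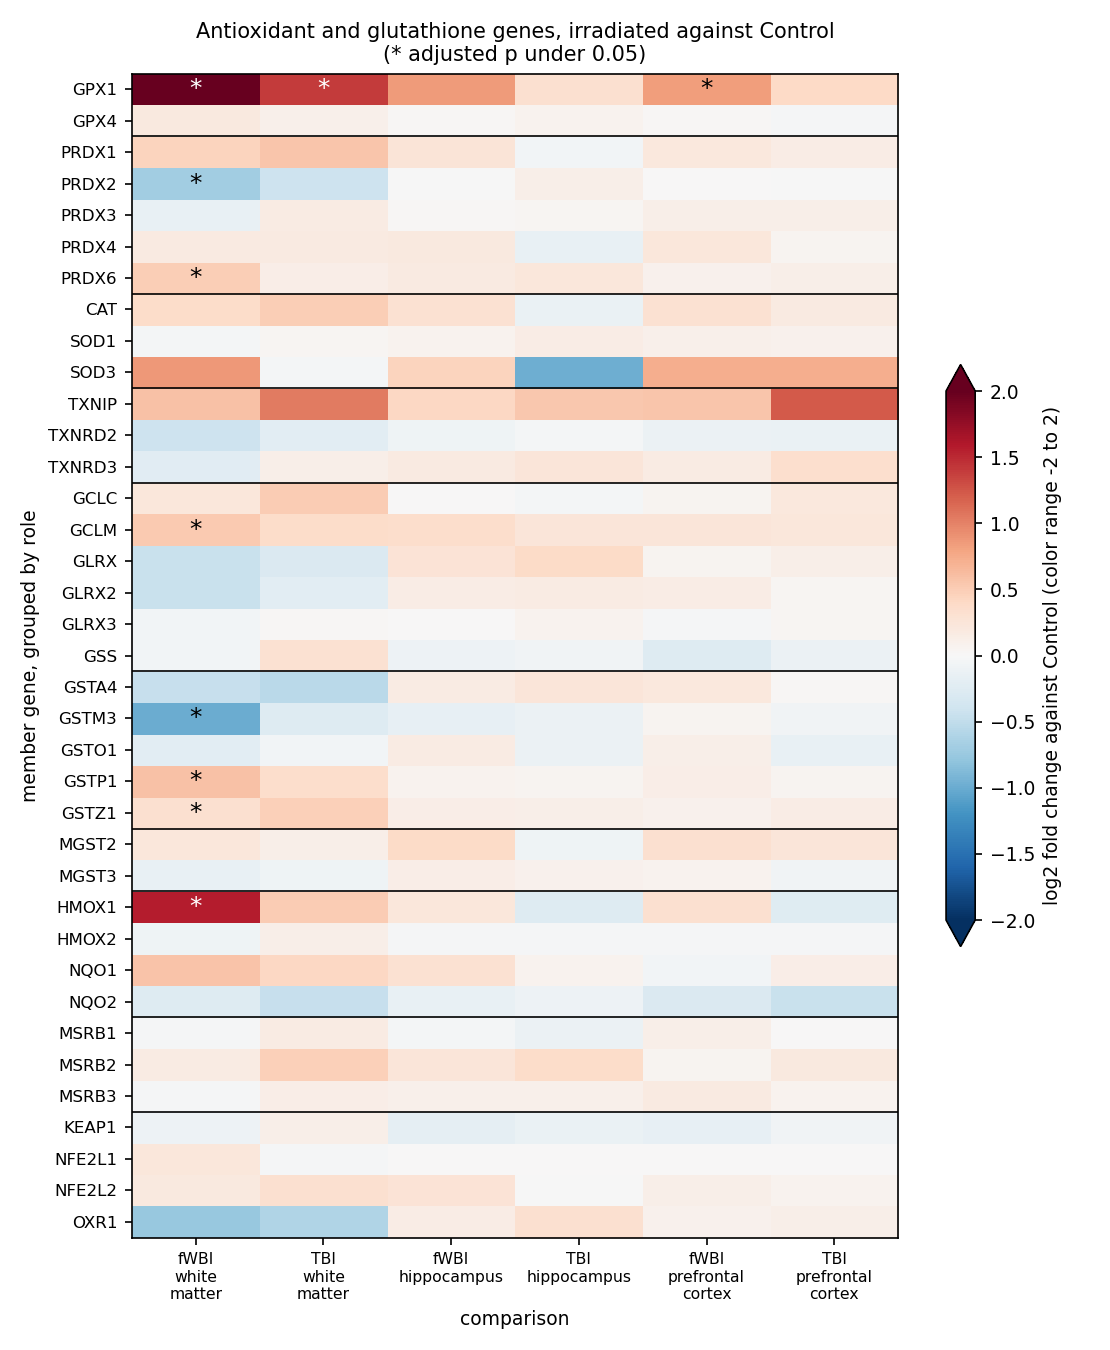
Log2 fold change of the 37 members tested in all regions, grouped by role, for fWBI and TBI against Control in each region, with the color range from -2 to 2 and an asterisk at an adjusted p under 0.05. GPX1 (3.29, beyond the color range) and HMOX1 (1.58) in fWBI white matter are the strongest rises called, and most calls are in that column.

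Markers of other cells moved with the same groups. Of 12 microglia and macrophage markers with a row (19 listed, none at 0 in any library), 9 rose and 1 fell in fWBI white matter against Control, with a median log2 change of 2.57. Of all genes tested there, 8.82% were called higher and 8.03% lower. The lysosomal marker CD68 was at 3.70 ± 0.39 and LYZ (lysozyme) at 4.75 ± 0.42, while P2RY12, a receptor of resting microglia, was at -1.36 ± 0.21. Their mean log2 CPM was 3.52 to 4.61 in Control, 4.76 to 5.13 in TBI and 5.76 to 6.73 in fWBI white matter, and these ranges did not overlap, as for GPX1. Within fWBI white matter, animal 5 had the lowest marker mean (5.76) and the lowest GPX1 (109 CPM), and animals 2 and 4 had the highest of both (6.68 and 6.73, and 245 and 226 CPM). The same marker mean was 2.84 to 3.56 in Control, 4.04 to 4.54 in fWBI and 3.11 to 3.81 in TBI hippocampus, and 2.61 to 3.08, 3.59 to 3.92 and 2.56 to 3.28 in prefrontal cortex. The fWBI and Control ranges of this mean did not overlap in either region, whereas those of GPX1 overlapped in hippocampus. Oligodendrocyte precursor markers were lower in 9 of 10 in fWBI white matter (mean log2 CPM 5.30 to 6.04 in Control, 3.05 to 3.81 in fWBI). Pan-neuronal markers were called lower in 8 of 13, with Control libraries 1 and 3 in the comparison; the other 3 Control libraries (4.59 to 4.91) lay within the fWBI range (4.19 to 5.21). Choroid plexus and ependyma markers were higher in 3 of 4 tested (mean log2 CPM -0.17 to 0.69 in Control, 0.68 to 2.39 in fWBI white matter). Of 11 astrocyte markers 2 were higher and 3 lower, of 8 endothelial markers 2 and 1, of 9 mural and fibroblast markers 1 and 1, and of 7 oligodendrocyte and myelin markers none was called (2 at an unadjusted p under 0.05).

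Outside white matter, mural and fibroblast markers were higher after fWBI in 5 of 9 in prefrontal cortex and 4 of 9 in hippocampus. In either direction, 1.17% of all genes were called after fWBI in prefrontal cortex and 0.742% in hippocampus, against 16.8% in white matter. Their mean log2 CPM was 4.14 to 4.91 in Control and 5.31 to 6.13 in fWBI prefrontal cortex, groups that did not overlap, as for GPX1 there. In hippocampus it was 3.92 to 4.72 in Control and 4.90 to 6.04 in fWBI libraries, which did not overlap either, whereas the GPX1 groups overlapped there. Oligodendrocyte precursor markers were lower in 6 of 10 in fWBI prefrontal cortex and 4 of 10 in fWBI hippocampus. No marker of the 10 lists was called by edgeR after TBI in any region; at an unadjusted p under 0.05 the pan-neuronal list had 13 of 13 in TBI white matter, again against Control libraries 1 and 3. The part of these cell types in the member changes was not tested. In bulk tissue more cells of a type and more RNA per cell cannot be told apart.

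**Figure D4:**
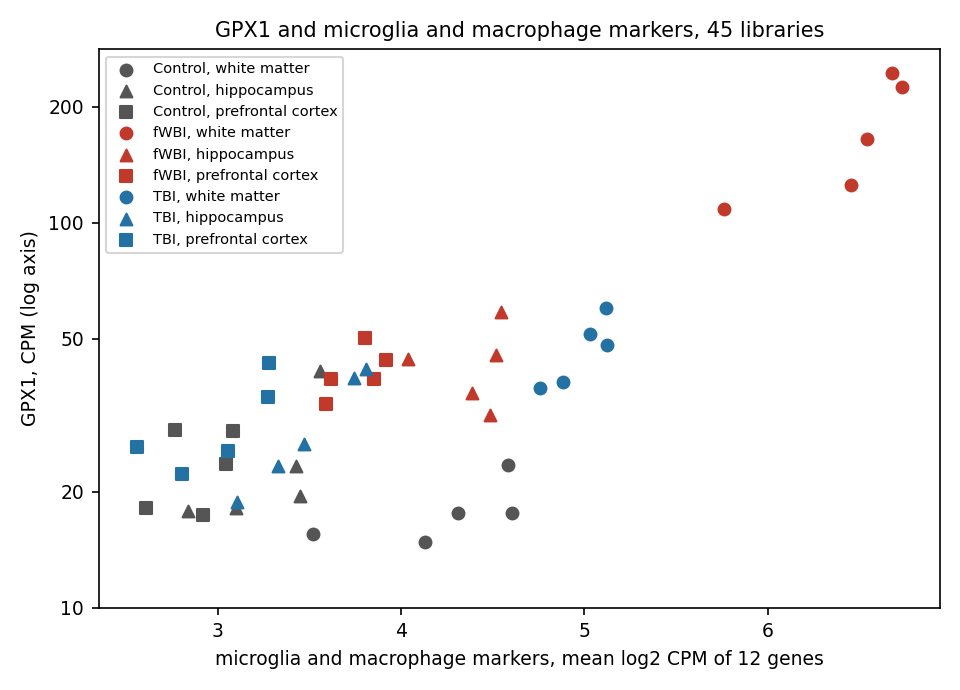
GPX1 in CPM (log axis) against the mean log2 CPM of 12 microglia and macrophage markers in each of 45 libraries; color gives the treatment and the marker shape the region. The fWBI white matter libraries are highest on both axes, and Control white matter (3.52 to 4.61) reaches the marker level of fWBI hippocampus (4.04 to 4.54) at a lower GPX1.

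After TBI, GPX1 was the 1 member called in white matter, 2.64-fold higher than Control (1.40 ± 0.22, adjusted p = 0.0302, higher in 5 of 5 animals). It was 1 of only 11 genes called among 15235 (0.0722%) and ranked 6 by p. Its call was lost in 10 of 19 alternative analyses while its value stayed between 1.24 and 1.52. Without Control libraries 1 and 3 it was 1.27 (adjusted p = 0.263), and it was also lost without Control library 1, 3, 4 or 5 or TBI library 3, 4 or 5 (adjusted p from 0.0518 to 0.117). With the pan-neuronal marker mean as a covariate it was 1.24 (adjusted p = 0.147). The microglia and macrophage markers had a median of 0.75 after TBI, with 0 of 12 called. By labelled dose, the 2 animals given 6.75 Gy had 37.1 and 38.5 CPM of GPX1, the 2 given 7.2 Gy had 51.4 and 60.2 CPM, and the animal given 8.05 Gy had 48.2 CPM; with so few animals per dose no trend was tested.

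The other members that lay wholly above the Control range in TBI white matter were GSTZ1 and TXNIP, both without passing the test. GSTZ1 was at 32.9, 33.9, 34.9, 38.7 and 37.5 CPM, against at most 30.3 CPM in Control (0.48 ± 0.11, adjusted p = 0.118). TXNIP, which binds thioredoxin and is known to respond to glucose and glucocorticoids, was at 319, 537, 457, 550 and 482 CPM in Control and 649, 1646, 798, 581 and 1146 CPM in TBI animals (1.04 ± 0.24, adjusted p = 0.118). TBI animal 2 was the highest for TXNIP. These 3 of 37 members (8.11%) compare with 2.63% of all genes whose groups did not overlap. DESeq2's test called GPX1, GSTZ1 (adjusted p = 0.00688) and TXNIP (adjusted p = 0.00721), in a fit that called 740 genes in all. HMOX1 was at 0.50 ± 0.30 (adjusted p = 0.401), NQO1 at 0.42 ± 0.32 (0.528), NFE2L2 at 0.32 ± 0.15 (0.274) and KEAP1 at 0.12 ± 0.09 (0.526). Over all tested members the median was 0.12, with 25 positive and 12 negative values, against -0.01 over all genes.

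Set directly against TBI, fWBI white matter was higher in 2 of 37 members (5.41%, against 7.36% of all genes called and 4.82% called higher). GPX1 was 3.71-fold higher (1.89 ± 0.22, adjusted p = 7.38e-05) and HMOX1 2.11-fold higher (1.07 ± 0.29, adjusted p = 0.0347), each with no overlap between the groups. HMOX1 in TBI animals was at 8.69, 8.55, 5.54, 12.1 and 7.75 CPM. Its call was lost without fWBI library 2, 4 or 5 or TBI library 1, 2, 3 or 5 (0.93 to 1.13, adjusted p from 0.0512 to 0.107). The groups also did not overlap for SOD3 (fWBI above) and KEAP1 (fWBI below), which with GPX1 and HMOX1 made 10.8% of members, against 8.51% of all genes. GSTM3 was at -0.73 ± 0.22 (adjusted p = 0.0541; -0.90, adjusted p = 0.018, without fWBI library 1), NQO1 at 0.15 ± 0.31 (0.85), NFE2L2 at -0.12 ± 0.15 (0.733) and KEAP1 at -0.23 ± 0.09 (0.174). The left-out fWBI library 1 had the highest GSTM3 of its group, so its removal enlarges the GSTM3 difference by construction.

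In hippocampus edgeR called no member after either exposure, and DESeq2's test called 1 after TBI. After fWBI, edgeR called 0 of 38 members (0.742% of all genes) and 7 had an unadjusted p under 0.05; DESeq2's test called 0. GPX1 was at 0.84 ± 0.26 (adjusted p = 0.189), above the Control mean in 5 of 5 animals. Without Control hippocampus library 2, the one that stood above its group, GPX1 was at 1.12 ± 0.23 (adjusted p = 0.0213). That library was singled out by its high GPX1 value, so leaving it out raises the difference by construction. The p-value of that fit is therefore no evidence of a rise. GCLM was at 20.3, 22.1, 16.6, 21.0 and 27.1 CPM in Control and 30.9, 27.6, 23.9, 26.7 and 27.2 CPM in fWBI animals, which overlapped (0.35 ± 0.11, adjusted p = 0.214). TXNIP was at 0.42 ± 0.16 (adjusted p = 0.321), NFE2L2 at 0.27 ± 0.12 (0.399), KEAP1 at -0.17 ± 0.12 (0.621), NQO1 at 0.31 ± 0.26 (0.714) and HMOX1 at 0.23 ± 0.23 (0.766). No member's groups were free of overlap (2.29% of all genes were). The median over members was 0.14, with 30 of 38 positive, against -0.01 over all genes.

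After TBI, edgeR called 0 of 38 members in hippocampus (0% of all genes) and 5 had an unadjusted p under 0.05. DESeq2's test called 1, OXR1 (adjusted p = 7.85e-06), in a fit that called 60 genes in all. OXR1, a TLDc-domain gene that protects neurons from oxidative damage, was at 429, 408, 379, 439 and 412 CPM in Control and 537, 534, 508, 516 and 497 CPM in TBI animals. The groups did not overlap, and edgeR gave 0.32 ± 0.06 (adjusted p = 0.222). It lay at 446, 481, 458, 478 and 433 CPM in fWBI animals, below every TBI animal. With GSTA4, OXR1 made 5.26% of members without overlap between TBI and Control, against 2.32% of all genes. GSTA4 was at 0.25 ± 0.07 (adjusted p = 0.343) and TXNIP at 0.54 ± 0.16 (0.343), with 198, 359, 251, 275 and 282 CPM in TBI and 124 to 223 CPM in Control. GPX1 was at 0.32 ± 0.26 (0.67), NFE2L2 at -0.01 ± 0.12 (0.984), KEAP1 at -0.13 ± 0.12 (0.692), NQO1 at 0.06 ± 0.26 (0.949) and HMOX1 at -0.27 ± 0.23 (0.694), as adjusted p-values of edgeR. Between fWBI and TBI hippocampus, edgeR and DESeq2 called 0 of 38 members (0.339% of all genes by edgeR) and 6 had an unadjusted p under 0.05. The groups did not overlap for PRDX4 (fWBI above) and OXR1 (fWBI below), 5.26% of members against 2.05% of all genes. The smallest p-values were those of GSTA2 (3.43 ± 1.2, adjusted p = 0.489), OXR1 (-0.17 ± 0.06, 0.504) and CAT (0.44 ± 0.16, 0.512), and GPX1 was at 0.53 ± 0.26 (0.698), HMOX1 at 0.50 ± 0.23 (0.677), NFE2L2 at 0.28 ± 0.12 (0.602), NQO1 at 0.25 ± 0.26 (0.901) and KEAP1 at -0.04 ± 0.12 (0.979).

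In prefrontal cortex GPX1 was the 1 member called after fWBI (2.70% of 37, against 1.17% of all genes). It rose 1.79-fold (0.84 ± 0.19, adjusted p = 0.0406), and its call was lost in 10 of 18 alternative analyses with values of 0.74 to 0.93 and an adjusted p of at most 0.112. Leaving out Control library 1, 2 or 3 or any 1 of the 5 fWBI libraries ended the call. GCLM was at 0.25 ± 0.11 (adjusted p = 0.34), CAT at 0.31 ± 0.16 (0.401), HMOX1 at 0.32 ± 0.27 (0.646), NFE2L2 at 0.12 ± 0.11 (0.672), KEAP1 at -0.16 ± 0.12 (0.596) and NQO1 at -0.05 ± 0.25 (0.953). GPX1 was also the 1 member whose groups did not overlap, 2.70% against 3.41% of all genes.

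After TBI, edgeR called 0 of 37 members in prefrontal cortex (0% of all genes) and 4 had an unadjusted p under 0.05. DESeq2's test called 1, TXNIP (adjusted p = 0.00955), in a fit that called 254 genes in all. TXNIP was at 69.1, 126, 89.7, 86.0 and 72.1 CPM in Control and 98.6, 424, 219, 135 and 148 CPM in TBI animals. No member's TBI and Control groups were free of overlap (2.28% of all genes were). TBI animal 2 was again the highest for TXNIP and animal 1 fell within the Control range (1.22 ± 0.30, adjusted p = 0.122 by edgeR). GCLC was at 0.22 ± 0.09 (adjusted p = 0.35), NQO2 at -0.44 ± 0.20 (0.398), GPX1 at 0.40 ± 0.19 (0.425), HMOX1 at -0.24 ± 0.28 (0.804), NFE2L2 at 0.06 ± 0.11 (0.88), KEAP1 at -0.06 ± 0.12 (0.891) and NQO1 at 0.13 ± 0.25 (0.888). Between fWBI and TBI prefrontal cortex, both tests called 0 of 37 members (0.29% of all genes by edgeR) and 2 had an unadjusted p under 0.05. GPX1 was at 0.44 ± 0.19 (adjusted p = 0.959), TXNIP at -0.68 ± 0.30 (0.987) and HMOX1 at 0.56 ± 0.27 (1), while NFE2L2, KEAP1 and NQO1 lay between -0.19 and 0.05. No member was free of overlap here either (1.35% of all genes were).

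Whether an effect differed between regions was tested over all 45 libraries with the animal as a block. The fWBI effect was larger in white matter than in prefrontal cortex for GPX1 (difference of log2 changes 2.44 ± 0.26, adjusted p = 3.06e-07) and HMOX1 (1.32 ± 0.22, adjusted p = 0.000241) and more negative for GSTM3 (-1.09 ± 0.25, adjusted p = 0.00407). These were 3 of 38 members (7.89%, against 10% of all genes), 2 more positive (4.57% of all genes) and 1 more negative (5.44%). Against hippocampus 4 of 38 differed (10.5%, against 9% of all genes), 2 in each direction (4.15% of all genes more positive and 4.86% more negative): GPX1 (2.38 ± 0.26, adjusted p = 4.46e-07), HMOX1 (1.38 ± 0.21, adjusted p = 9.58e-05), GSTM3 (-0.88 ± 0.25, adjusted p = 0.0213) and GLRX, a cytosolic glutaredoxin that removes glutathione from protein thiols (-0.69 ± 0.20, adjusted p = 0.0271). Without Control white matter libraries 1 and 3 the calls of GSTM3 (-0.63, adjusted p = 0.179) and GLRX (-0.47, adjusted p = 0.251) against hippocampus ended, as did those of both without Control animal 3 or fWBI animal 3, of GLRX without Control animal 1 or fWBI animal 4 and of GSTM3 without fWBI animal 2. Without Control animal 2 the counts rose to 6 against prefrontal cortex and 7 against hippocampus, and without Control animal 4 to 5 and 6 and without Control animal 5 to 6 and 5. The shares of all genes called in these fits are not given here, so no excess of members can be read from the counts. No member's fWBI effect was called as different between hippocampus and prefrontal cortex (0 of 38, 0% of all genes, 0 at an unadjusted p under 0.05, and 0 by DESeq2's test).

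The TBI effect gave 0 of 38 members in each of the 3 contrasts between regions by edgeR, against 0.0181%, 0% and 0.00602% of all genes for white matter minus prefrontal cortex, hippocampus minus prefrontal cortex and white matter minus hippocampus. At an unadjusted p under 0.05 there were 4, 3 and 8 members, but the share of all genes at that threshold is not given here. DESeq2's test called GPX1 in both white matter contrasts (1.06 ± 0.27, adjusted p = 0.0298, and 1.10 ± 0.27, adjusted p = 0.0454) and no member in the third. The number of all genes that DESeq2 called in these contrasts is not given here. By edgeR the adjusted p of GPX1 was 0.127 and 0.178, and without Control animal 5 the second contrast called GPX1 (1.18, adjusted p = 0.0469) and HMOX1 (1.02, adjusted p = 0.0451). The edgeR and DESeq2 tests thus gave different calls for the TBI effect on GPX1 in white matter against the other regions.

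In Control animals, white matter and prefrontal cortex differed in 26 of 37 members (70.3%, against 61% of all genes), 19 higher (29.6% of all genes) and 7 lower (31.4%) in white matter. The highest were PRDX1, an abundant cytosolic peroxiredoxin (3.04 ± 0.26), CAT (catalase, 2.54 ± 0.22), TXNIP (2.45 ± 0.19) and MGST2, a microsomal glutathione transferase (2.04 ± 0.24), with adjusted p-values of 7.58e-06, 7.9e-06, 5.93e-06 and 5.27e-05. The lowest were OXR1 (-1.56 ± 0.32), PRDX2 (-1.13 ± 0.25), NQO2 (-1.02 ± 0.21) and GSTA4 (-1.0 ± 0.23), with adjusted p-values of 0.00143, 0.00235, 0.00179 and 0.00295. Without Control white matter libraries 1 and 3 these 4 were at -2.25, -1.61, -1.32 and -1.44. By role, all 5 tested peroxiredoxins differed, in both directions, as did the regulators NFE2L1, NFE2L2 and KEAP1 together with OXR1. PRDX1 overlaps the gene MMACHC in the RefSeq annotation, and MMACHC was also higher in white matter (1.95 ± 0.21), so reads of the 2 cannot be told apart if strand was not used in counting; the same holds for MGST2 and MAML3 (1.21 ± 0.26).

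White matter and hippocampus differed in 23 of 37 members (62.2%, against 56% of all genes), 16 higher (28.2% of all genes) and 7 lower (27.9%) in white matter. PRDX1 (2.55 ± 0.26), MGST2 (2.11 ± 0.25), CAT (1.84 ± 0.21) and NFE2L2 (1.77 ± 0.17) were the highest, and PRDX2 (-1.32 ± 0.25), NQO2 (-1.24 ± 0.21), GSTA4 (-1.03 ± 0.23) and GSTM3 (-0.82 ± 0.19) the lowest, with adjusted p-values of at most 0.0032. These values include Control white matter libraries 1 and 3. Values without that pair are not given here, and the sizes may depend on it, as against prefrontal cortex. NFE2L2, at 307 ± 78.8 CPM in Control white matter, was at 90.2 ± 16.5 CPM in hippocampus and 83.0 ± 13.7 CPM in prefrontal cortex (SD, n = 5). Its inhibitor KEAP1 was also higher in white matter, by log2 values of 0.56 ± 0.12 against prefrontal cortex (adjusted p = 0.00224) and 0.53 ± 0.12 against hippocampus (0.00389).

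Hippocampus and prefrontal cortex differed in 7 of 37 members (18.9%, against 15.1% of all genes), 4 higher (7.73% of all genes) and 3 lower (7.32%). TXNIP (1.10 ± 0.18, adjusted p = 0.00183), CAT (0.70 ± 0.21, adjusted p = 0.0452), HMOX1 (0.60 ± 0.18, adjusted p = 0.0479) and the glutathione synthetase GSS (0.34 ± 0.10, adjusted p = 0.0422) were higher in hippocampus. GSTO1, the omega-class transferase (-1.20 ± 0.18, adjusted p = 0.00111), OXR1 (-1.02 ± 0.31, adjusted p = 0.0443) and NQO1 (-0.50 ± 0.14, adjusted p = 0.0307) were lower. Leaving out any 1 of the 5 animals left 2 to 4 calls, in fits whose share of all genes called is not given here. GPX1 was not called between any 2 regions of Control animals (white matter minus prefrontal cortex -0.38 ± 0.19, adjusted p = 0.108; white matter minus hippocampus -0.39 ± 0.19, adjusted p = 0.108; hippocampus minus prefrontal cortex 0.01 ± 0.20, adjusted p = 0.99).

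**Figure D5:**
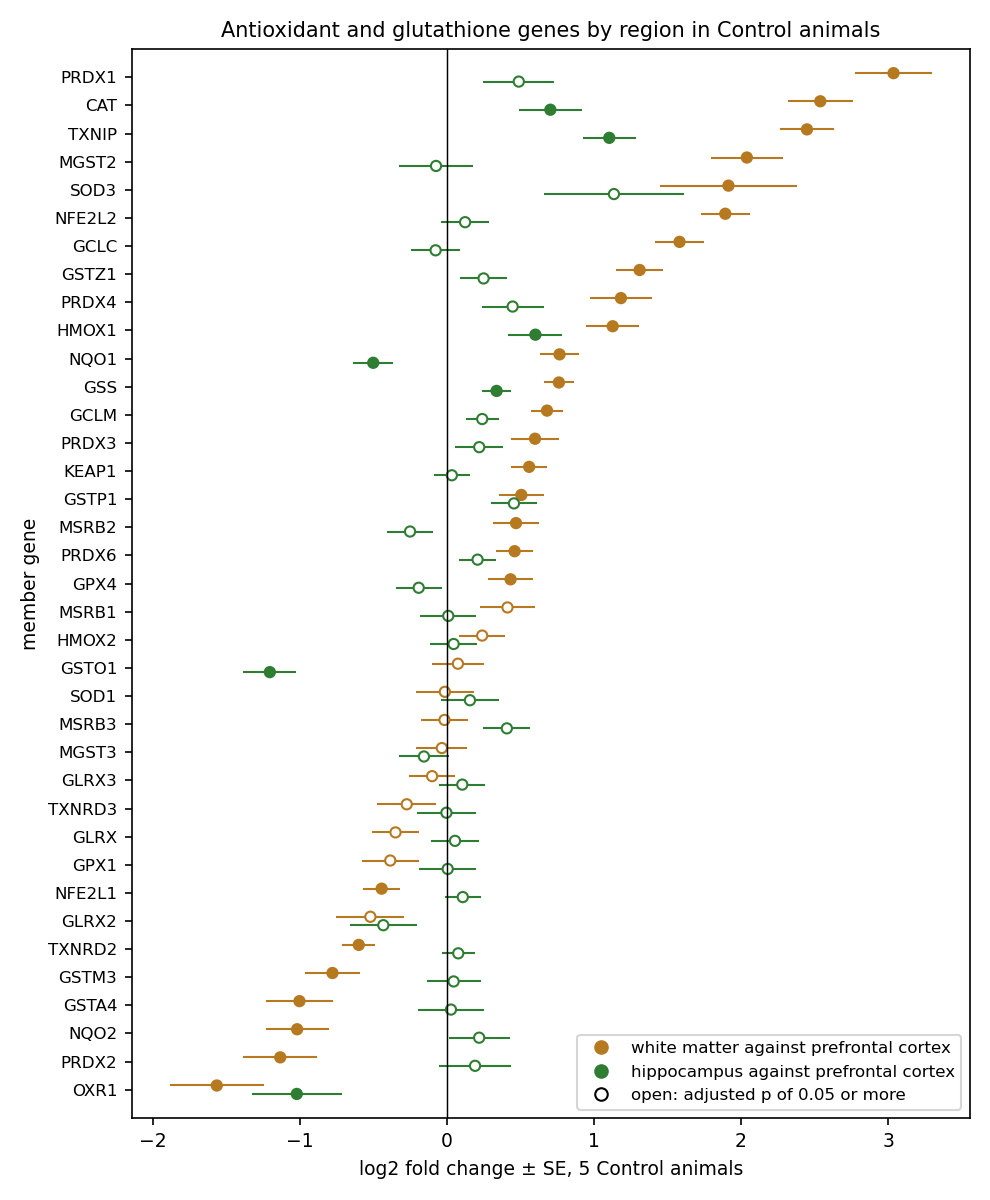
Log2 fold change ± SE of the 37 tested members between regions of the 5 Control animals, with filled points at an adjusted p under 0.05. PRDX1 (3.04), CAT (2.54) and TXNIP (2.45) are highest in white matter against prefrontal cortex, OXR1 (-1.56) is lowest, and GPX1 has open points in both comparisons (-0.38 and 0.01).

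Genes outside the members that feed or oppose these enzymes were counted from 5 lists. In fWBI white matter 7 of 16 tested oxidant-producing enzymes were higher and 0 lower, among them CYBB (2.60 ± 0.23, adjusted p = 2.88e-06), a subunit of the phagocyte NADPH oxidase, and ALOX5AP, the 5-lipoxygenase activating protein (1.77 ± 0.25). Of the NRF2 partners and other NRF2 targets 6 of 15 were higher and 0 lower, led by the ferritin light chain FTL (1.09 ± 0.16), SQSTM1 (0.75 ± 0.14) and AKR1B1 (0.68 ± 0.16). NADPH supply had 5 of 17 higher and 1 lower, led by MTHFD2 (1.27 ± 0.24), PGD of the pentose phosphate pathway (0.42 ± 0.09) and NADK, which makes NADP (0.54 ± 0.13). Glutathione supply, turnover and export had 2 of 16 higher and 3 lower, led by falls of OPLAH (-1.10 ± 0.17), which recovers glutamate from oxoproline, the glutamate and cysteine transporter SLC1A1 (-0.81 ± 0.14) and GGT7 (-0.50 ± 0.13). Other thiol and lipid peroxide defence had 1 of 19, the iron exporter SLC40A1 (1.16 ± 0.19). The adjusted p-values of these named genes were at most 0.018 by edgeR, and the shares set against 16.8% of all genes were 43.8, 40, 35.3, 31.2 and 5.26% called, in the order given. These genes were not examined without Control white matter libraries 1 and 3, the pair with high pan-neuronal markers. How far their values, falls included, depend on that pair is therefore not known.

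In fWBI hippocampus 2 genes of these lists were called, SLC7A11, the cystine importer that supplies glutathione synthesis (0.52 ± 0.11, adjusted p = 0.0366), and CYBB (1.02 ± 0.21, adjusted p = 0.0321). In fWBI prefrontal cortex they were CYBB (1.11 ± 0.17, adjusted p = 0.00326) and SLC40A1 (0.69 ± 0.15, adjusted p = 0.027). Of all genes, 0.742% were called after fWBI in hippocampus and 1.17% in prefrontal cortex. The numbers of list genes tested in these regions are not given here, so no excess can be read from the calls. No gene of the 5 lists was called by edgeR after TBI in any region. In TBI white matter 1 of 16, 4 of 17, 4 of 15, 2 of 19 and 9 of 16 tested genes had an unadjusted p under 0.05 in the lists of glutathione supply, NADPH supply, NRF2 partners, other thiol defence and oxidant production. The share of all genes at that threshold is not given here, so no excess can be read from these counts.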

How the data were processed

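Raw counts of reads for each Ensembl gene ID in 45 libraries were deposited by the authors in 1 table. The libraries were stranded and made from rRNA-depleted total RNA of integrity number 7.1 to 9.3, per the labels' protocols. FastQC, STAR, featureCounts and DESeq2 are named without versions, per the submitters' processing notes; the build, the annotation and whether counting used strand are not stated in those notes, the labels or the table. All 45 columns were matched to a library. Without a strand setting, reads of genes that overlap on opposite strands can be assigned to the wrong gene. Reads of near-identical copies, such as members of a glutathione transferase class, can be misassigned with or without it. Symbols came from a table pairing IDs with names, and overlaps from RefSeq genes of T2T-MMU8v2.0. No coordinates or sequences are given.

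The members, lists and tests were chosen with earlier results of these data known, and some lists follow that earlier work, so they are no independent evidence. Named were all called members per irradiation comparison (at most 12; where fewer than 3, the 3 smallest p), GPX1, NFE2L2, KEAP1, NQO1 and HMOX1 in each, the 4 largest rises and falls between regions, and up to 3 called genes of each other list, of which 1 is not reported here. PRDX2 per library, SOD3, TXNRD2 and members named from DESeq2 were added after their values were seen.

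Treatments were fitted within a region on its 15 libraries and regions within the 5 Control animals, with edgeR 4.0.16 in R 4.3.3 (TMM, filterByExpr, two-sided quasi-likelihood test). Region fits and their interactions with treatment used the animal as a block. The labels give this pairing: libraries of 1 animal deviated together (median r = 0.333 over 45 pairs across genes, 38 above 0.1). Marker levels are mean log2 CPM with a prior count of 2. Alternatives were DESeq2 1.42.0 (size factors or test), other filters, a fold minimum, other sample sets, covariates and each library or animal left out. On simulated counts for fWBI against Control in white matter (15235 genes), 50% of 2-fold and 96% of 4-fold changes were recovered, so small changes can be missed. Each fold size was given to 50 genes, far fewer in all than the 2567 called in the data, so recovery in the data may differ. No pair of libraries of a group agreed within sampling noise (smallest chi-square per gene 6.49).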

Additional observations from a re-analysis of the deposited data

Results flagged for a closer look

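Of 72 groups of 5 libraries examined for 8 members, 2 had a library whose gap to the nearest other library exceeded 0.71 of the group's range; chance gives about 1 such group in 20. GPX1 was at 41.3 CPM in Control hippocampus animal 2, with the nearest other library at 23.4 CPM. GCLM was at 25.1 CPM in TBI prefrontal cortex animal 4, with the nearest at 20.7 CPM.

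The fWBI effect differed between regions for 7 gene and region pairs by edgeR's interaction test. Between white matter and prefrontal cortex the differences of log2 changes were 2.44 for GPX1 (adjusted p = 3.06e-07), 1.32 for HMOX1 (0.000241) and -1.09 for GSTM3 (0.00407). Between white matter and hippocampus they were 2.38 for GPX1 (4.46e-07), 1.38 for HMOX1 (9.58e-05), -0.88 for GSTM3 (0.0213) and -0.69 for GLRX (0.0271).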

How the results depend on the processing

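No named member that was called in the main analysis changed direction in an alternative. The direction of uncalled members, of markers and of genes in the other lists was not followed. Counts of members called stayed within 1.5 times the main count except as follows. Without Control white matter libraries 1 and 3 they were 4 for fWBI against Control in white matter, 0 for TBI against Control there and 2 for the fWBI effect in white matter minus hippocampus. A covariate for the pan-neuronal mean gave 4 (fWBI against Control), 0 (TBI against Control) and 5 (fWBI against TBI) in white matter, and one for the myelin mean gave 0 for fWBI in prefrontal cortex, as did a minimum of 50 counts on average (0). DESeq2's test gave 3 for TBI in white matter, 4 for fWBI against TBI there, 1 for TBI in hippocampus, 1 for TBI in prefrontal cortex and 1 for each TBI effect in white matter minus another region. Fitting only the 2 groups compared gave 4 for fWBI against TBI in white matter.

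The replicate block, by animal number across treatments, gave 0 for TBI in white matter (GPX1 1.41, adjusted p = 0.0558) and 1 for TBI in prefrontal cortex (TXNIP 1.11, adjusted p = 0.0467). Same-numbered animals of different groups share only a number: their deviations had a median r of 0.0212 over 45 pairs, 15 above 0.1, and 11 of 45 libraries correlated best with their own number. With no replicate block for the animal, hippocampus against prefrontal cortex gave 4 calls.

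Leaving out 1 library or animal gave 5 to 11 calls for fWBI in white matter, 0 to 1 for TBI in white matter, 1 to 3 for fWBI against TBI there, 0 to 1 for fWBI in hippocampus, 0 to 1 for fWBI in prefrontal cortex, 2 to 4 for hippocampus against prefrontal cortex, 3 to 6 and 2 to 7 for the fWBI effect in white matter minus prefrontal cortex and minus hippocampus, and 0 to 2 for the TBI effect in white matter minus hippocampus. The interaction fits without an animal were added after seeing the data. GPX1 kept its call in fWBI white matter in every alternative (3.13 to 3.42). The cause of the lost calls was not tested. For most of these fits the share of all genes called is not given beside the count of members. All genes called, 2567 for fWBI and 11 for TBI in white matter, ranged from 1657 to 3155 and from 0 to 740 over the alternatives. DESeq2's test called 277 for fWBI in hippocampus (114 by edgeR), 60 for TBI (0), 135 for fWBI against TBI (52), and in prefrontal cortex 466 (182), 254 (0) and 93 (45). A minimum of 50 counts gave 68, 31, 94 and 21 for the 4 of these comparisons with calls by edgeR, and the covariate gave 1733 for fWBI against TBI in white matter (1122). Only 50% of simulated 2-fold changes were recovered in white matter, so uncalled members may still differ. The simulation changed far fewer genes than were called in the data, so that share need not hold for the data.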

Other observations

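TXNIP was highest in TBI animal 2 in all 3 regions, at 1646 CPM (white matter), 359 CPM (hippocampus) and 424 CPM (prefrontal cortex), where the next TBI animal had 1146, 282 and 219 CPM.

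GSTA2, an alpha-class transferase, was detected mainly in hippocampus and varied between animals of a group: 4.14, 34.7, 3.71, 0 and 2.28 CPM in Control, 4.80, 0.711, 0.801, 8.19 and 33.5 CPM in fWBI and 0.286 to 2.14 CPM in TBI animals. Mean log2 CPM of 5 choroid plexus and ependyma markers was highest in the same 2 libraries, 4.49 in Control animal 2 and 4.09 in fWBI animal 5, against -0.28 to 3.05 in the other hippocampus libraries of those groups. Control animal 2 is also the hippocampus library with the highest Control GPX1.

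Red blood cell markers (7 with a row, HBA1 at 0 in all libraries) averaged 0.46 log2 CPM in the white matter of TBI animal 4, -0.06 in its hippocampus and 0.29 in its prefrontal cortex, against -2.10 to -1.36 in the libraries of the other TBI animals. That animal had the highest TBI GPX1 in white matter (60.2 CPM) and prefrontal cortex (43.3 CPM). In hippocampus its GPX1 (39.6 CPM) was below that of TBI animal 5 (41.7 CPM). GPX1, CAT and PRDX2 are abundant in red cells, and the part of blood in these values was not tested.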
